A study of Mus musculus with 20 samples.

Results

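The genes described here are 44 genes of mitosis and chromosome segregation in rat lung, taken from the 23799 genes of the deposited expression table by gene symbol. Each of the 44 symbols was found in exactly 1 row, all 44 rows are annotated as protein coding, and the genes lie on 15 chromosomes. The rule uses their names and no measured value, but the list was drawn up with earlier results of these data known. The genes were sorted into 8 roles: mitotic entry, chromosome structure, kinetochore, spindle checkpoint, chromosomal passenger complex, spindle and motors, cytokinesis, and anaphase with mitotic exit.

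Mitosis begins when cyclins bind and switch on the kinase CDK1. Chromosomes are then condensed, captured at their kinetochores by spindle microtubules and held until a checkpoint is satisfied, after which securin and cyclin are destroyed, the sister chromatids separate and the cell is cleaved. Most of these genes are transcribed only shortly before division, so their mRNA is scarce in a resting tissue such as adult lung and is widely read as a sign of dividing cells. The roles given below are those known from human and mouse cells.

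Lung mRNA was sequenced from 20 Sprague Dawley rats, an outbred laboratory stock, with 1 library per animal and 5 animals in each of 4 groups: bleomycin females, sham females, bleomycin males and sham males. Bleomycin, a glycopeptide that breaks DNA strands, was given to cause acute lung injury, the sham animals went without that injury, and only animals of a weight-matched cohort were sequenced. No engineered allele is named, and the dose, the route, the time to collection and the age of the animals are not given in the sources used here. The organism field of the labels reads Mus musculus, whereas the stock, the genome used and the Ensembl identifiers are those of rat. In RNA from whole tissue, more cells of a type and more RNA per cell cannot be told apart.

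Each library held 68.6 to 87.5 mega-counts, and lung genes were abundant throughout: the summed level of 9 alveolar type 2 cell genes was 3865 to 16362 FPKM (fragments per kilobase per mega-fragment) in bleomycin animals and 12827 to 18915 FPKM in sham animals. Transcripts of neighbouring organs reached 50 FPKM for Alb, Acta1, Adipoq or Myl7 in 5 libraries, namely bleomycin males 2 and 5, sham female 1, and sham males 3 and 5. The share of counts on mitochondrial genes was 4.43 to 5.61% in bleomycin females, 5.43 to 9.56% in bleomycin males, 5.60 to 7.41% in sham females and 4.42 to 7.63% in sham males. Genes with an FPKM of at least 0.5 in at least 5 libraries were tested, 15875 in all, by edgeR's quasi-likelihood test with Benjamini-Hochberg adjustment over all of them, and a gene passed at an adjusted p under 0.05. Log2 fold changes are given ± their standard error and mean FPKM ± SD (standard deviation), with n = 5 animals per group.

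Of the 44 mitosis genes, 43 were tested. Foxm1 was not, since it reached 0.5 FPKM in 4 libraries. Cenpa and Cenpe met the level only with the help of the bleomycin libraries, so that they had to come out higher there, and the other 41 met it in the sham libraries alone. Summed over the 44 genes, mitosis transcripts made up 0.145 to 0.215% of counts in bleomycin females, against 0.0298 to 0.0560% in sham females, and 0.115 to 0.182% in bleomycin males, against 0.0405 to 0.0637% in sham males. Neither pair of ranges overlapped. The sums lean on Aurkb in some lungs, and in bleomycin male 2 it held 277 of the 535 FPKM summed over the 44 genes. Mean levels over the 20 lungs ran from 0.452 FPKM for Foxm1 to 52.4 FPKM for Aurkb, and after Aurkb the next most abundant were Prc1 at 20.8, Cdk1 at 19.3 and Cdc20 at 13.3 FPKM. The map of levels by animal shows this as a block of high values in all 10 bleomycin lungs for nearly every gene, deeper in colour in the females at both ends, with the rows of Aurkb and Kif4a standing apart.

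**Figure D1:**
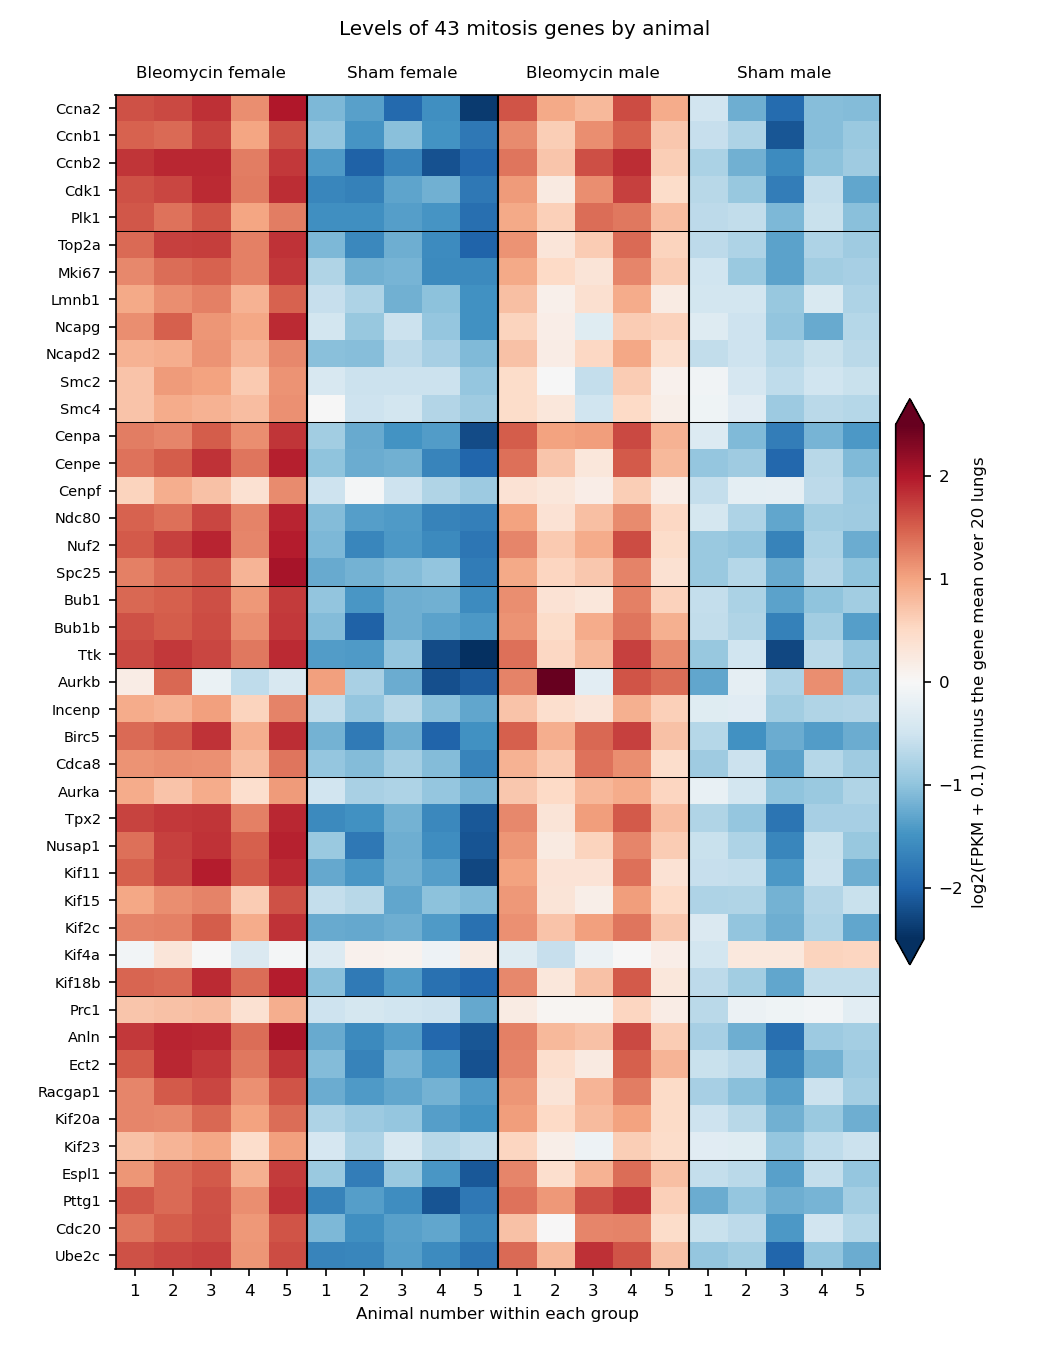
Levels of the 43 tested mitosis genes (rows, in the order of their roles) in each of 20 lungs (columns, 5 per group), drawn as log2(FPKM + 0.1) minus the mean of that gene over the 20 lungs, with red above and blue below that mean. In 39 of the 43 genes every bleomycin lung is above every sham lung; Smc2, Smc4, Aurkb and Kif4a are the exceptions.

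The first comparison set bleomycin lungs against sham lungs within each sex. Nearly all tested mitosis genes rose with bleomycin in both sexes. The counts that follow include Cenpa and Cenpe, which met the minimum level only with the help of the bleomycin libraries. In females 41 of 43 tested genes were higher and none was lower at the threshold, beside 13.2% of all tested genes that were higher and 8.38% that were lower, and all 41 had a log2 fold change of at least 1, as 5.46% of all tested genes did. In males 42 of 43 were higher and none was lower, beside 22.6% and 19.3% of all tested genes, and 37 had a log2 fold change of at least 1, beside 7.77%. The median log2 fold change of the mitosis genes was 2.92 in females, a 7.56-fold higher level, and 1.75 in males, a 3.37-fold higher level, whereas the median over all tested genes was −0.000024 in females and 0.04 in males. FPKM values of the bleomycin and the sham group did not overlap for 41 of the genes in females, beside 14.9% of all tested genes, and for 39 in males, beside 12.6%. Over both sexes, all 10 bleomycin lungs were above all 10 sham lungs for 39 of the 43, beside 4.89% of all tested genes.

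**Figure D2:**
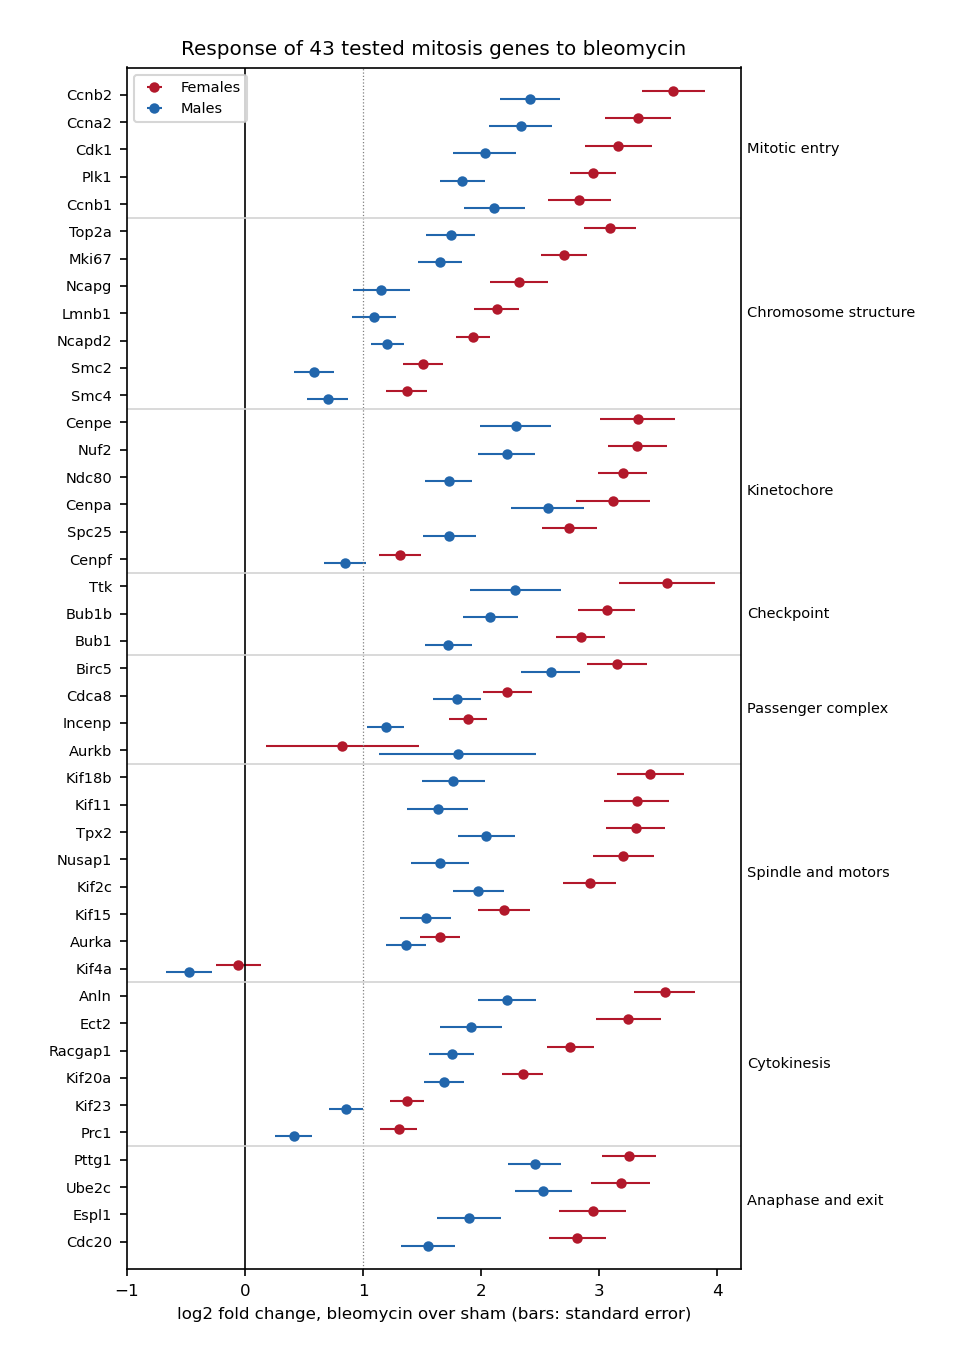
Log2 fold change of bleomycin over sham (x axis) with its standard error (bars) for the 43 tested mitosis genes (y axis), in females (red) and males (blue), grouped by role and sorted by the female value; the dotted line marks a log2 fold change of 1. Values run from −0.054 ± 0.19 to 3.63 ± 0.27 in females and from −0.47 ± 0.19 to 2.59 ± 0.25 in males, and the female point lies to the right of the male point for every gene except Aurkb.

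Among the genes of mitotic entry, Cdk1, the kinase that drives cells into mitosis, was the most abundant. Its level was 38.8, 40.4, 46.3, 31.4 and 46.0 FPKM in the 5 bleomycin females, against 4.03, 3.89, 5.02, 5.51 and 3.63 FPKM in the 5 sham females, listed by animal number. In males Cdk1 stood at 26.7, 14.8, 28.6, 41.7 and 17.6 FPKM after bleomycin, against 7.81, 6.53, 3.77, 8.39 and 5.10 FPKM after sham. The groups did not overlap in either sex, and bleomycin males 2 and 5 were the lowest of the bleomycin lungs while bleomycin male 4 reached the female range. Cdk1 rose by 3.16 ± 0.28 (adjusted p = 1.1e-07) on the log2 scale in females and by 2.03 ± 0.27 (adjusted p = 1.5e-05) in males. Plk1, a kinase that drives spindle assembly and mitotic exit, was at 16.6, 14.5, 16.8, 11.2 and 13.8 FPKM in bleomycin females, against 1.88, 1.88, 2.09, 1.95 and 1.45 FPKM in sham females. In males Plk1 was at 10.9, 8.57, 14.9, 14.2 and 9.59 FPKM after bleomycin, against 3.51, 3.62, 2.53, 3.79 and 2.67 FPKM after sham. Here too no bleomycin lung came down to a sham lung, and every sham female was below every sham male. The CDK1 partners rose as well: Ccnb2 (cyclin B2) had the largest female response of all 43 genes, 3.63 ± 0.27 (adjusted p = 1.8e-08), with 15.5 ± 2.45 FPKM in bleomycin females, against 1.23 ± 0.295 FPKM in sham females. Ccna2 (cyclin A2) and Ccnb1 (cyclin B1) rose by 3.33 ± 0.28 and 2.83 ± 0.26 in females, and the 3 cyclin genes rose by 2.11 to 2.42 in males. Ccnb2 is uncertain because a pseudogene copy, Ccnb2-ps2, could share its reads; that copy was itself higher, by 2.47 ± 0.22 in females and 2.07 ± 0.22 in males.

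**Figure D3:**
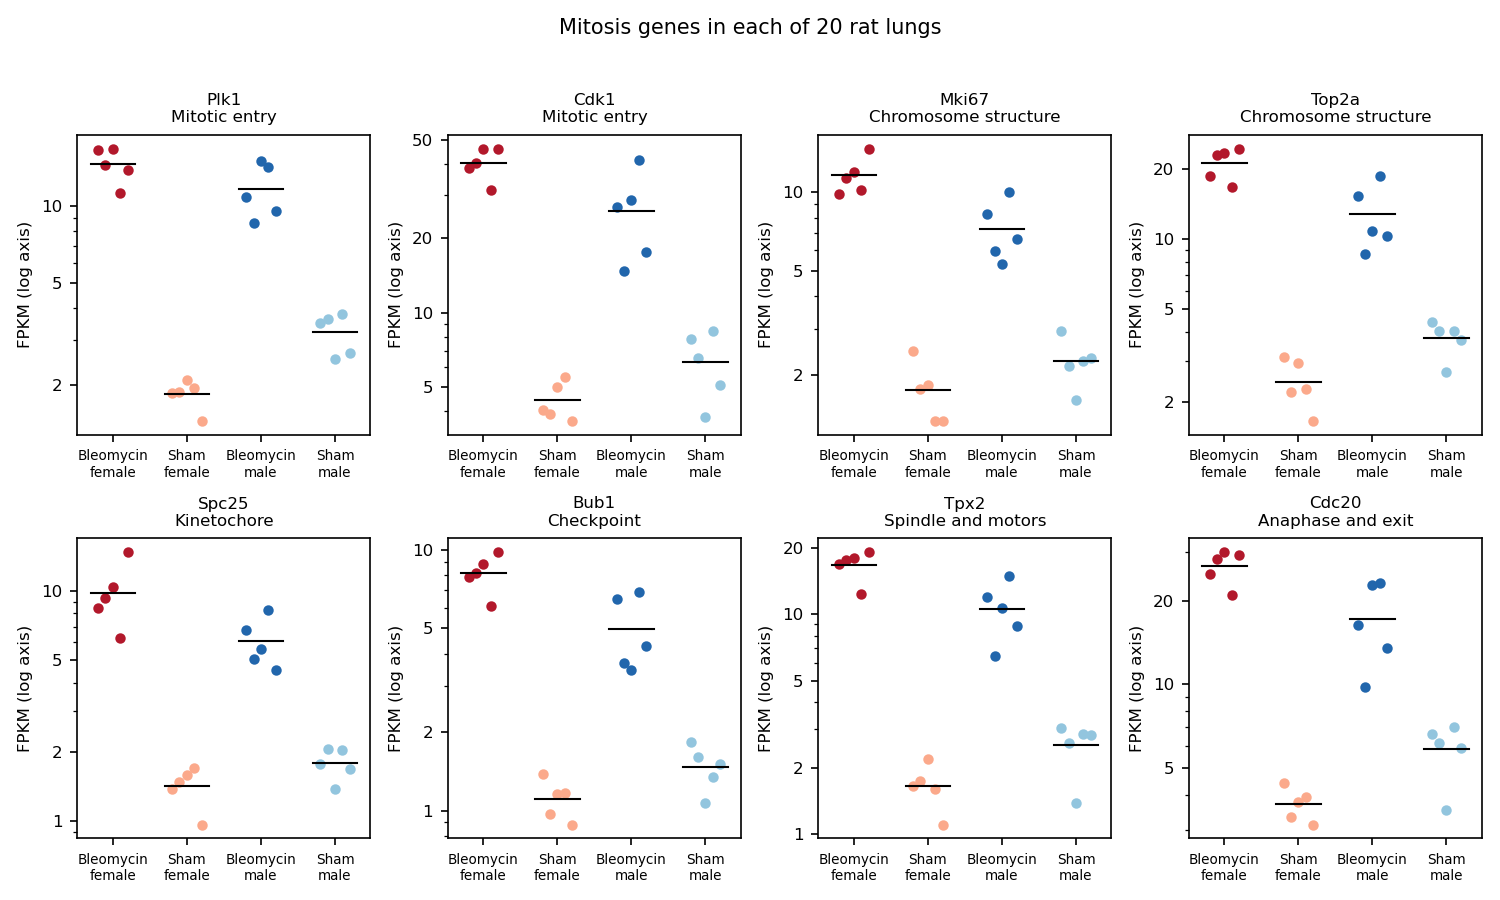
FPKM (log axes) of 8 mitosis genes in each of 20 lungs, in bleomycin females, sham females, bleomycin males and sham males; points are animals 1 to 5 from left to right within a group and lines are group means. In all 8 genes the bleomycin points lie above the sham points of the same sex without overlap, for example 11.2 to 16.8 against 1.45 to 2.09 FPKM for Plk1 in females.

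Foxm1, a transcription factor known to drive genes of mitotic entry, was listed at 0.239, 2.61, 0.330, 0.284 and 1.09 FPKM in bleomycin females, against 0, 0.165, 0, 0.193 and 0 FPKM in sham females. In males the table lists Foxm1 at 2.78, 0.00490, 0, 0.648 and 0.451 FPKM after bleomycin, against 0, 0.0216, 0.0732, 0.0588 and 0.0819 FPKM after sham. The values are high in bleomycin female 2 and bleomycin male 1, while bleomycin male 3 is listed at 0 and bleomycin male 2 close to it. Its counts summed to 1716 over the bleomycin females and 133 over the sham females, and to 1377 over the bleomycin males and 88 over the sham males. When all 23799 genes were tested without a minimum level, Foxm1 was 3.59 ± 1.55 (adjusted p = 0.15) in females and 3.86 ± 1.59 (adjusted p = 0.08) in males, and did not pass in either. The table places Foxm1 on chromosome 4, from 161638816 to 161650684 on the plus strand, and gives Tex52 the same start and strand and Nrip2 a start inside Foxm1, so reads of this stretch could be credited to any of these genes. Tex52 was higher by 2.50 ± 0.67 in females (adjusted p = 0.01) and 1.64 ± 0.65 in males (adjusted p = 0.0493). Nrip2 did not pass, at 0.60 ± 0.35 in females and 0.45 ± 0.35 in males. The labels name Rnor 6.0 as the assembly, but the largest end on chromosome 1 in the table is 260398790 and the build could not be settled, so positions are given as the table has them.

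All 7 genes of chromosome structure rose in both sexes. Lmnb1 encodes lamin B1, part of the nuclear lamina that is taken apart in mitosis, and stood at 18.6, 21.7, 23.1, 17.6 and 26.8 FPKM in bleomycin females, against 6.40, 5.63, 4.12, 4.65 and 3.29 FPKM in sham females. Male levels of Lmnb1 were 16.4, 10.4, 12.7, 18.3 and 11.1 FPKM after bleomycin and 6.98, 6.96, 4.94, 7.37 and 5.61 FPKM after sham. The sham levels were well above zero in every lung, and the rise was 2.13 ± 0.19 (adjusted p = 1.2e-07) in females and 1.09 ± 0.18 (adjusted p = 0.00015) in males. Top2a, the topoisomerase that untangles sister chromatids, had 18.7, 22.9, 23.3, 16.7 and 24.4 FPKM in bleomycin females, against 3.13, 2.20, 2.93, 2.28 and 1.65 FPKM in sham females. For Top2a the male values were 15.3, 8.62, 10.8, 18.7 and 10.3 FPKM after bleomycin and 4.39, 4.04, 2.68, 4.03 and 3.69 FPKM after sham. Bleomycin males 1 and 4 lay close to or inside the female bleomycin range and the other 3 bleomycin males below it. Mki67, whose protein Ki-67 coats mitotic chromosomes and is a standard marker of cycling cells, was measured at 9.88, 11.3, 11.9, 10.2 and 14.7 FPKM in bleomycin females, against 2.48, 1.78, 1.84, 1.34 and 1.34 FPKM in sham females. In male lungs Mki67 was at 8.26, 5.97, 5.32, 9.99 and 6.63 FPKM after bleomycin, against 2.94, 2.18, 1.61, 2.27 and 2.33 FPKM after sham. The male log2 fold changes of Top2a and Mki67 were 1.74 ± 0.21 (adjusted p = 5.7e-06) and 1.65 ± 0.19 (adjusted p = 3.8e-06), with no overlap of the groups.

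The condensin genes, whose products compact chromosomes, rose by less than Top2a in both sexes. Ncapg and Ncapd2, subunits of condensin I, rose by 2.32 ± 0.25 and 1.93 ± 0.14 in females and by 1.16 ± 0.24 and 1.21 ± 0.14 in males. Smc2 and Smc4, the ATPase core that condensins I and II share, rose by 1.51 ± 0.17 and 1.37 ± 0.17 in females. In males their rises were 0.58 ± 0.17 (adjusted p = 0.0098) for Smc2 and 0.70 ± 0.17 (adjusted p = 0.0031) for Smc4, and bleomycin and sham males overlapped for both, with Smc2 at 6.99, 5.02, 3.34, 7.96 and 5.49 FPKM after bleomycin, against 4.79, 3.78, 3.22, 3.58 and 3.43 FPKM after sham. Bleomycin male 3 had the lowest Smc2 level of the bleomycin males, inside the sham range. With only the male libraries in the fit, Smc2 missed the threshold (adjusted p = 0.056). Reads of Smc4 cannot be separated with certainty from Trim59, which overlaps it on the opposite strand and rose by 0.94 ± 0.29 in males, since the use of strand in counting is not stated. For the same reason Ccna2, Aurka, Kif15, Anln, Kif20a and Ube2c are less certain, since Exosc9, Fam210b, RGD1311745, Matcap2, Cdc23 and Tnnc2 overlap them, in that order, on the opposite strand.

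All 6 tested kinetochore genes rose in both sexes, and the protein complex that grips microtubules was represented by 3 of them. Spc25, a subunit of that NDC80 complex, had 8.41, 9.35, 10.4, 6.28 and 14.8 FPKM in bleomycin females, against 1.38, 1.48, 1.58, 1.71 and 0.966 FPKM in sham females. Male Spc25 levels were 6.76, 5.06, 5.58, 8.29 and 4.52 FPKM after bleomycin and 1.77, 2.07, 1.38, 2.05 and 1.68 FPKM after sham. The sham lungs of both sexes kept within a narrow band, and bleomycin female 5 gave the highest value of the 20. The partners Ndc80 and Nuf2 rose by 3.20 ± 0.21 and 3.32 ± 0.25 in females and by 1.72 ± 0.20 and 2.22 ± 0.24 in males, and Spc25 by 2.75 ± 0.23 in females and 1.73 ± 0.22 in males. Cenpa, the histone H3 variant that marks centromeres, was at 2.78 ± 0.530 FPKM in bleomycin females and 0.315 ± 0.132 FPKM in sham females. Its male rise of 2.56 ± 0.31 (adjusted p = 6.2e-06) was the second largest of the 43. Cenpe, a kinetochore motor, rose by 3.33 ± 0.32 in females and 2.29 ± 0.30 in males. Cenpa and Cenpe met the minimum level only with the help of the bleomycin libraries. Their rises were therefore built into the selection, and their p-values are no evidence of a rise. Cenpf, a large kinetochore-associated protein gene, moved least in this role, by 1.32 ± 0.18 in females and 0.85 ± 0.18 in males, and was already at 1.58 ± 0.405 FPKM in sham females and 1.60 ± 0.338 FPKM in sham males.

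The 3 spindle checkpoint genes, which delay anaphase while chromosomes are unattached, rose together in both sexes. Bub1, a checkpoint kinase at the kinetochore, had 7.85, 8.17, 8.85, 6.10 and 9.80 FPKM in bleomycin females, against 1.38, 0.969, 1.16, 1.17 and 0.882 FPKM in sham females. Among males Bub1 was at 6.46, 3.68, 3.45, 6.89 and 4.26 FPKM after bleomycin and 1.84, 1.60, 1.07, 1.35 and 1.51 FPKM after sham. Bleomycin males 1 and 4 were within the female bleomycin range and bleomycin males 2, 3 and 5 below it, and no bleomycin lung overlapped a sham lung. Bub1 rose by 2.84 ± 0.20 (adjusted p = 1.8e-08) in females and 1.72 ± 0.20 (adjusted p = 4e-06) in males. Bub1b, the BubR1 gene, rose by 3.06 ± 0.24 in females and 2.08 ± 0.23 in males. Ttk, the kinase that starts checkpoint signalling, rose by 3.57 ± 0.41 in females, the second largest female response, and by 2.29 ± 0.38 in males. Its standard error was the widest in this role, with 0.337 ± 0.182 FPKM in sham females and 0.579 ± 0.251 FPKM in sham males.

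The chromosomal passenger complex is made of Aurora B kinase and the proteins INCENP, survivin and borealin, and corrects faulty attachments before it moves to the cleavage site. Birc5, the survivin gene, had the largest male response of all 43 genes, 2.59 ± 0.25 (adjusted p = 1e-06), with 6.11 ± 1.69 FPKM in bleomycin males, against 1.00 ± 0.259 FPKM in sham males. In females Birc5 rose by 3.15 ± 0.26 (adjusted p = 4.8e-08). Cdca8, the borealin gene, rose by 2.22 ± 0.21 and Incenp by 1.89 ± 0.16 in females, and by 1.80 ± 0.20 and 1.19 ± 0.16 in males. Aurkb, the kinase gene of the same complex, passed in males but not in females, and whether it differs from its partners was not tested. Its level was 38.1, 91.4, 30.1, 21.6 and 25.3 FPKM in bleomycin females, against 68.6, 19.1, 14.1, 7.24 and 7.84 FPKM in sham females. Male Aurkb levels were 78.9, 277, 27.8, 99.4 and 88.4 FPKM after bleomycin and 13.6, 28.5, 19.6, 75.2 and 16.9 FPKM after sham. In each group 1 library was far above the others, namely bleomycin female 2, sham female 1, bleomycin male 2 and sham male 4, and bleomycin and sham values overlapped in both sexes. The female difference of 0.83 ± 0.65 (adjusted p = 0.4) did not pass, and its 95% confidence interval, −0.45 to 2.10, holds both no change and the rise of Incenp. The male rise was 1.80 ± 0.66 (adjusted p = 0.036), and without bleomycin male 2 it was 1.21 with an adjusted p of 0.14; it also missed the threshold, at adjusted p of 0.067 to 0.079, without sham male 1, 2, 3 or 5. Leaving out the 5 libraries with neighbouring organ transcripts gave 1.74 in females (adjusted p = 0.043) and 0.81 in males (adjusted p = 0.37). Aurkb was the most variable of the 43 genes in all 4 groups, with an SD of log2 FPKM of 0.82 in bleomycin females, 1.30 in sham females, 1.18 in bleomycin males and 0.97 in sham males.

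**Figure D4:**
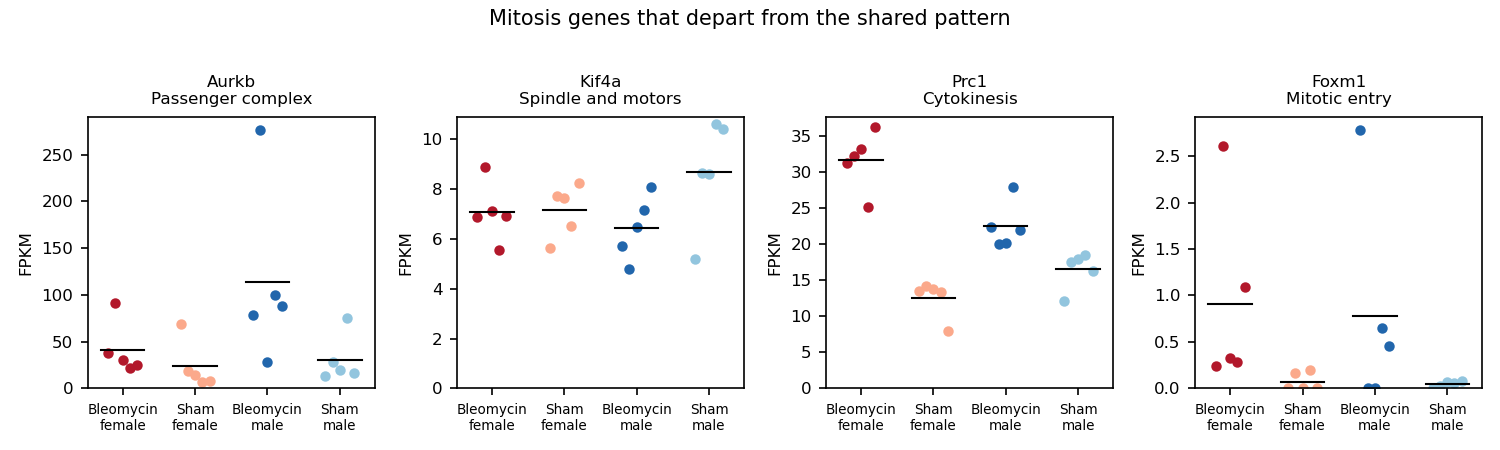
FPKM (linear axes from 0) of Aurkb, Kif4a, Prc1 and Foxm1 in each of 20 lungs, in bleomycin females, sham females, bleomycin males and sham males; points are animals 1 to 5 from left to right within a group and lines are group means. Aurkb has 1 high library in every group (up to 277 FPKM in bleomycin male 2), Kif4a overlaps between all groups, Prc1 is at 7.96 to 14.2 FPKM already in sham females, and Foxm1 is near 0 in most lungs.

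Of the 8 genes of the spindle and its motors, 7 rose in both sexes. Tpx2, which activates Aurora A and nucleates spindle microtubules, was at 16.9, 17.7, 18.0, 12.4 and 19.2 FPKM in bleomycin females, against 1.65, 1.74, 2.21, 1.61 and 1.10 FPKM in sham females. In males the Tpx2 levels were 12.0, 6.47, 10.7, 15.0 and 8.84 FPKM after bleomycin and 3.03, 2.60, 1.39, 2.84 and 2.84 FPKM after sham. Sham male 3 and sham female 5 were the lowest lungs of their groups, bleomycin male 2 the lowest after bleomycin, and the treatments did not overlap. Tpx2 rose by 3.31 ± 0.25 (adjusted p = 2.4e-08) in females and 2.05 ± 0.24 (adjusted p = 4.6e-06) in males. Kif11, the motor that pushes spindle poles apart, rose by 3.32 ± 0.27 in females and 1.63 ± 0.26 in males. Kif18b and Kif2c, which trim microtubule ends, rose by 3.43 ± 0.29 and 2.92 ± 0.22 in females and by 1.76 ± 0.27 and 1.97 ± 0.22 in males. Nusap1, a microtubule-bundling protein gene, rose by 3.20 ± 0.26 in females and 1.65 ± 0.24 in males. Kif15, a motor that works beside Kif11, rose by 2.19 ± 0.22 in females and 1.53 ± 0.22 in males, and Aurka, the kinase of spindle poles, by 1.65 ± 0.17 in females and 1.36 ± 0.17 in males.

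Kif4a, a motor that binds chromosome arms and shortens the central spindle, was the exception among the spindle genes and is the only one of the 44 that the table places on the X chromosome. Its level was 6.88, 8.90, 7.11, 5.57 and 6.91 FPKM in bleomycin females, against 5.63, 7.73, 7.64, 6.53 and 8.26 FPKM in sham females. In males Kif4a was at 5.71, 4.81, 6.47, 7.16 and 8.10 FPKM after bleomycin, against 5.19, 8.65, 8.61, 10.6 and 10.4 FPKM after sham. All 4 groups overlapped, and in sham lungs, where most mitosis genes were low, Kif4a was not. The difference was −0.054 ± 0.19 (adjusted p = 0.88) in females, with a 95% confidence interval of −0.43 to 0.33, and −0.47 ± 0.19 (adjusted p = 0.059) in males, with an interval of −0.85 to −0.089. The male value passed as a fall in DESeq2 (−0.49, adjusted p = 0.037), and in edgeR without sham male 1 (−0.62, adjusted p = 0.0068), bleomycin male 4 (−0.53, adjusted p = 0.0484) or bleomycin male 5 (−0.54, adjusted p = 0.0459). The gene listed as Kif4b, which by its name could share reads with Kif4a, took only 228 counts over all 20 lungs. Their sequences were not compared, and how any shared reads were assigned is not stated.

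All 6 cytokinesis genes rose in both sexes. Prc1, which bundles the microtubules of the spindle midzone, was at 31.3, 32.3, 33.2, 25.2 and 36.3 FPKM in bleomycin females, against 13.5, 14.2, 13.8, 13.4 and 7.96 FPKM in sham females. Male Prc1 levels were 22.4, 20.1, 20.1, 28.0 and 22.0 FPKM after bleomycin and 12.2, 17.6, 18.0, 18.6 and 16.2 FPKM after sham. Although Prc1 was abundant in every sham lung, the lowest bleomycin male was still above the highest sham male. Its rise was 1.30 ± 0.16 (adjusted p = 5.3e-06) in females and 0.41 ± 0.15 (adjusted p = 0.038) in males, the smallest male rise that passed. The male value of Prc1 missed the threshold without sham male 1 (0.31, adjusted p = 0.1), sham male 2 (0.42, adjusted p = 0.056), sham male 5 (0.42, adjusted p = 0.056) or bleomycin male 4 (0.30, adjusted p = 0.11), with only the male libraries in the fit (0.40, adjusted p = 0.083), with no filter on low values (0.40, adjusted p = 0.062) and without the 5 libraries with neighbouring organ transcripts (0.59, adjusted p = 0.0502). Anln encodes anillin, a scaffold of the contractile ring, and rose by 3.55 ± 0.26 in females and 2.22 ± 0.24 in males. Anlnl1, an anillin-like gene that could share its reads, rose as well, by 3.29 ± 0.36 in females and 1.81 ± 0.34 in males. Ect2, which activates RhoA at the cleavage site, rose by 3.25 ± 0.28 in females and 1.92 ± 0.26 in males. Racgap1 and Kif23 encode the partners of the centralspindlin complex and rose by 2.76 ± 0.20 and 1.37 ± 0.14 in females and by 1.75 ± 0.19 and 0.86 ± 0.14 in males. Kif20a, a motor of the midzone, rose by 2.35 ± 0.17 in females and 1.69 ± 0.17 in males.

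The 4 genes of anaphase and mitotic exit rose by 2.81 ± 0.24 to 3.25 ± 0.23 in females and by 1.55 ± 0.23 to 2.53 ± 0.24 in males. Cdc20 activates the anaphase-promoting complex, the ubiquitin ligase that ends metaphase, and stood at 24.9, 28.2, 30.0, 20.9 and 29.2 FPKM in bleomycin females, against 4.42, 3.32, 3.76, 3.92 and 3.12 FPKM in sham females. In the male groups Cdc20 had 16.4, 9.81, 22.9, 23.3 and 13.5 FPKM after bleomycin and 6.61, 6.14, 3.53, 7.03 and 5.90 FPKM after sham. Bleomycin male 2 was the lowest bleomycin lung and still above the highest sham lung. Ube2c, the ubiquitin-conjugating partner of that complex, was at 18.5 ± 5.94 FPKM in bleomycin males and 3.18 ± 0.856 FPKM in sham males, the third largest male rise. Pttg1 (securin) and Espl1 (separase), the lock and the protease of sister chromatid separation, rose by 3.25 ± 0.23 and 2.94 ± 0.28 in females and by 2.45 ± 0.22 and 1.90 ± 0.27 in males.

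The next comparison asked whether the response differed between the sexes, the subject that the series title names, and was coded as the female log2 fold change minus the male one. At the threshold 19 of 43 genes had a larger female response and none a smaller one, while 24 did not pass, beside 3.65% of all tested genes with a larger one and 2.04% with a smaller one. Of the 19, 16 differed by a log2 value of at least 1, beside 1.86% of all tested genes. The difference was positive for 42 of the 43, with a median of 1.01, against −0.015 over all tested genes. By role the 19 were 6 of 7 genes of chromosome structure, 4 of 6 of cytokinesis, 4 of 8 of the spindle, 2 of 5 of mitotic entry, 1 of 6 of the kinetochore, 1 of 3 of the checkpoint, 1 of 4 of anaphase and exit, and 0 of 4 of the passenger complex. Whether roles differ in this was not tested. The passenger genes had 1 difference with an unadjusted p under 0.05, beside 4203 of all 15875 tested genes.

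Kif11 had the largest difference between the sexes, 1.69 ± 0.36 (adjusted p = 0.02). Its level was 6.65, 7.66, 9.26, 6.82 and 8.61 FPKM in bleomycin females, against 0.893, 0.775, 0.944, 0.826 and 0.395 FPKM in sham females. The male values of Kif11 were 4.74, 2.93, 2.93, 6.17 and 2.99 FPKM after bleomycin and 1.52, 1.50, 0.783, 1.56 and 0.925 FPKM after sham. Bleomycin females all lay above bleomycin males, while sham females overlapped the lower sham males. Kif18b followed at 1.67 ± 0.37 (adjusted p = 0.022) and Nusap1 at 1.56 ± 0.34 (adjusted p = 0.021). The kinetochore gene Ndc80 differed by 1.47 ± 0.28 (adjusted p = 0.016), and Top2a by 1.35 ± 0.29 (adjusted p = 0.02). Plk1 and Mki67 differed by 1.11 ± 0.26 (adjusted p = 0.025) and 1.05 ± 0.26 (adjusted p = 0.03). At the other end stood Aurka, 0.29 ± 0.24 (adjusted p = 0.45), with a 95% confidence interval of −0.17 to 0.75, Kif4a, 0.42 ± 0.27 (adjusted p = 0.35), and Aurkb, the single negative value, −0.98 ± 0.91 (adjusted p = 0.53). The genes with the largest male rises did not pass this test: Birc5 was at 0.56 ± 0.34, Cenpa at 0.55 ± 0.41 and Ube2c at 0.65 ± 0.33, with intervals of −0.099 to 1.22, −0.26 to 1.37 and 0.014 to 1.30. All 95% confidence intervals given here rest on a normal approximation and are narrower than edgeR's test would give. The interval of Ube2c, which just leaves out no change, is therefore not read as a difference.

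The count of 19 depended on the libraries. It was 6 without bleomycin female 2, bleomycin female 3 or sham male 4, 7 without bleomycin male 2 or sham female 5, 8 without sham female 2 or 4, 9 without sham male 1 or 5, 12 without sham female 3, and 32 without bleomycin male 4. It was 2 without the 5 libraries that hold neighbouring organ transcripts and 0 with the mitochondrial share of counts as a covariate (in edgeR, with 21 at an unadjusted p under 0.05), while the median difference was 0.97 and 0.67 in these fits. Over all tested genes 27 and 0 passed in these fits, against 903 in the fit of all 20 libraries without the covariate. How many of all genes had an unadjusted p under 0.05 there was not counted.

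**Figure D5:**
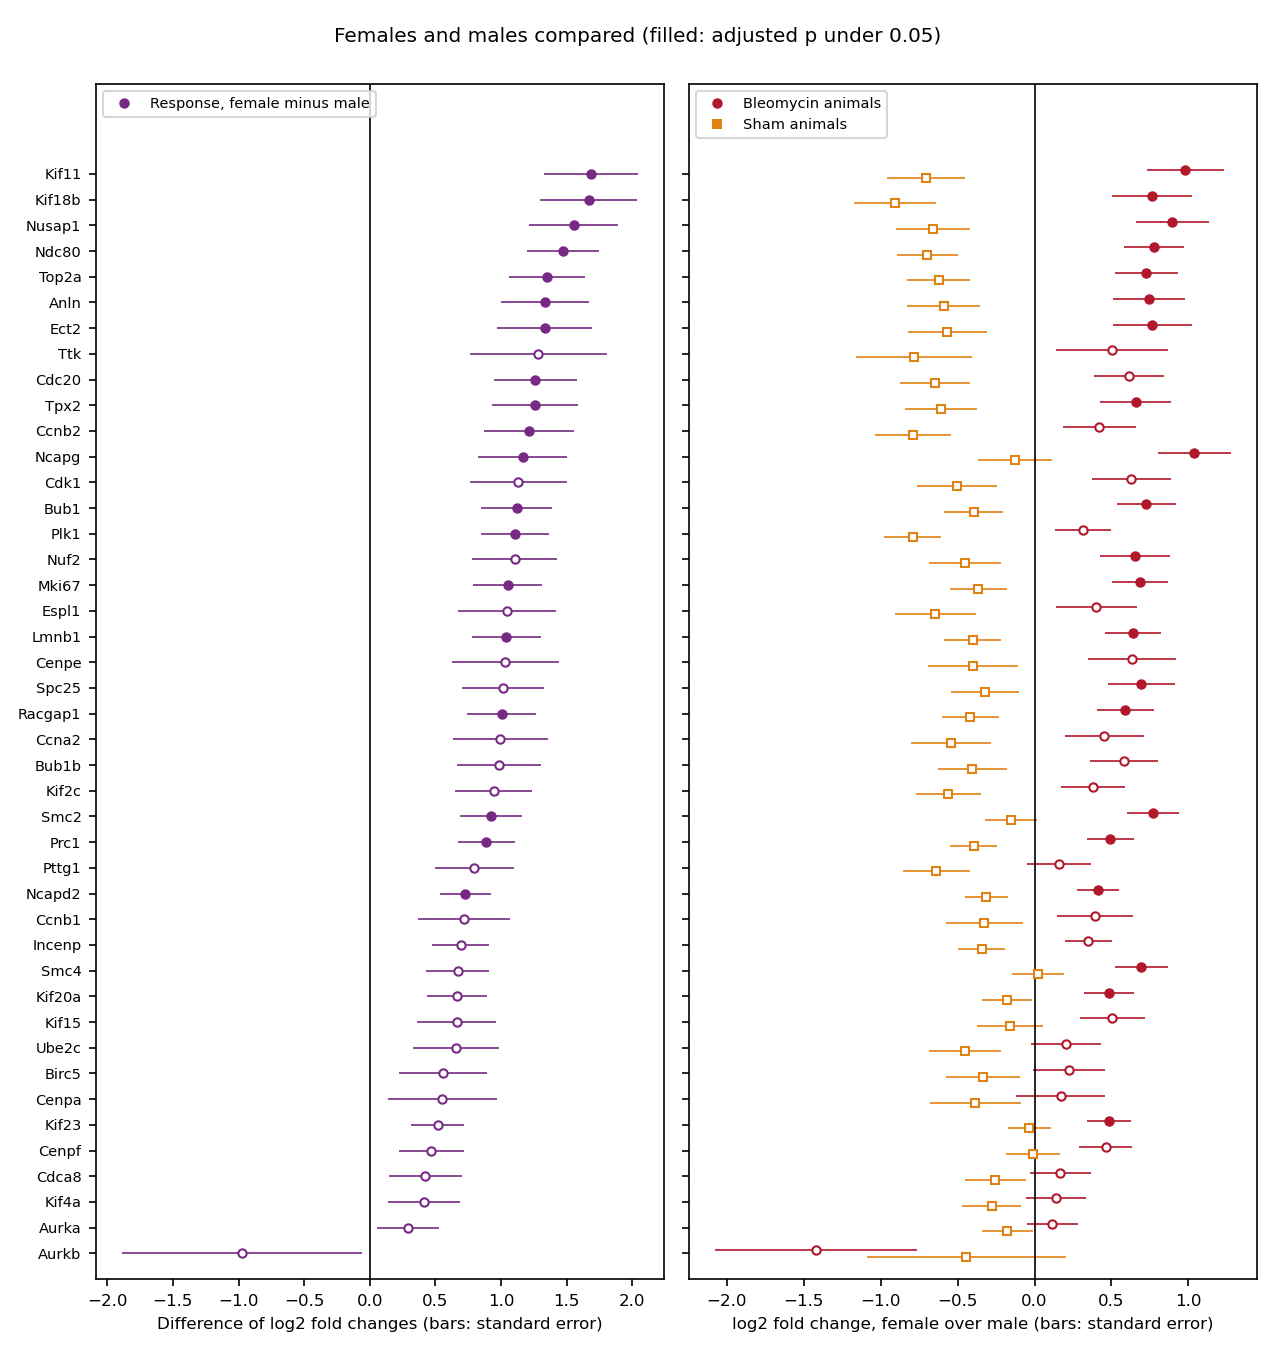
Left, the difference between the female and the male response (log2 scale, x axis) with its standard error for the 43 tested mitosis genes (y axis); right, log2 fold change of females over males within bleomycin animals (circles) and within sham animals (squares). Filled symbols pass at an adjusted p under 0.05: 19 on the left, 21 circles and 0 squares on the right, where nearly all circles lie above 0 and nearly all squares below it.

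Within each treatment the sexes were then set side by side; these comparisons use the same libraries as the difference of responses, so none of them adds independent evidence to another. In bleomycin lungs 21 of 43 mitosis genes were higher in females and none was lower, beside 11.7% of all tested genes that were higher and 8.72% that were lower, with a median log2 difference of 0.50. They were 7 of 7 genes of chromosome structure, 6 of 6 of cytokinesis, 4 of 8 of the spindle, 3 of 6 of the kinetochore and 1 of 3 of the checkpoint, and 0 of the 13 tested genes of mitotic entry, the passenger complex and anaphase. Of those 13, 4 had an unadjusted p under 0.05, beside 5726 of all 15875 tested genes. Of the 4, 3 had the higher level in females and Aurkb had the higher level in males. The condensin gene Ncapg had the largest difference and was at 2.99, 3.83, 2.87, 2.62 and 4.96 FPKM in bleomycin females and 1.94, 1.47, 1.02, 2.06 and 1.98 FPKM in bleomycin males. The ranges of Ncapg did not meet, and its log2 difference of 1.04 ± 0.24 (adjusted p = 0.0079) was the only one of at least 1 that passed, beside 2.07% of all tested genes that were higher by as much. Smc2 and Smc4 were higher in bleomycin females by 0.77 ± 0.17 and 0.69 ± 0.17. FPKM values of bleomycin females and males did not overlap for Ncapg, Smc2, Smc4, Ndc80, Nusap1 and Kif11, 6 of 43 genes, beside 5.06% of all tested genes. Kif11 and Nusap1 were higher in females by 0.98 ± 0.25 (adjusted p = 0.013) and 0.90 ± 0.24 (adjusted p = 0.015). Aurkb was at −1.42 ± 0.66 and did not pass (adjusted p = 0.13), and Aurka and Kif4a were at 0.12 ± 0.17 and 0.14 ± 0.19.

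The female excess after bleomycin also hung on single libraries and on the fit. The count of 21 was 9 without bleomycin male 2, 10 without bleomycin female 3, 11 without bleomycin female 2, bleomycin female 5 or bleomycin male 5, and 13 without bleomycin male 3. With edgeR it was 0 when only the 10 bleomycin libraries were fitted (28 at an unadjusted p under 0.05, median 0.49), 0 with the mitochondrial share as a covariate (4, median 0.26) and 0 without the 5 libraries with neighbouring organ transcripts (12, median 0.31), whereas DESeq2 on all 20 libraries called 24. Over all tested genes 3239 passed in the edgeR fit of all 20 libraries, and 29, 46 and 906 in these edgeR alternatives, in that order. The shares of all tested genes given above therefore hold for the fit of all 20 libraries only. How many of all genes had an unadjusted p under 0.05 in the alternatives was not counted. Bleomycin females and bleomycin males barely overlapped in their mitochondrial share, 4.43 to 5.61% against 5.43 to 9.56%, and its part in these differences was not tested beyond the fit with it as a covariate.

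In sham lungs the sign was the other way. Of the 43 genes 42 were lower in females than in males, with a median log2 difference of −0.40, against 0.00077 over all tested genes, but 0 passed in edgeR, beside 0.409% of all tested genes that were lower and 0.113% that were higher. At an unadjusted p under 0.05 there were 19, beside 1632 of all 15875 tested genes, and DESeq2 called 3, beside 325 of all genes. Kif18b had the lowest value, −0.91 ± 0.27 (adjusted p = 0.17), followed by Plk1 at −0.79 ± 0.18 (adjusted p = 0.064) and Ccnb2 at −0.79 ± 0.25 (adjusted p = 0.2). Plk1 and Pttg1 were lower in every sham female than in every sham male, 2 of 43 genes, beside 3.16% of all tested genes. For Pttg1 the ranges were 1.13 to 2.01 FPKM in sham females and 2.22 to 2.95 FPKM in sham males. Smc4, Cenpf and Kif23 were closest to zero, at 0.022 ± 0.17, −0.0075 ± 0.17 and −0.033 ± 0.14. Without the 5 libraries with neighbouring organ transcripts 6 genes passed, all lower in females, and 1 passed without sham male 3, bleomycin male 2, bleomycin male 3 or bleomycin male 5.

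Within a group the mitosis genes tended to be high or low together in the same animals. Bleomycin female 5 had the highest value of its group in 31 of the 43 genes and bleomycin female 4 the lowest in 39. Among sham females, animal 1 was highest in 27 and animal 5 lowest in 34. Bleomycin male 4 was highest of its group in 36, while the lowest place was divided among bleomycin male 2 with 17, bleomycin male 3 with 14 and bleomycin male 5 with 12. Sham male 1 was highest in 22 and sham male 3 lowest in 34. The median SD of log2(FPKM + 0.1) over the mitosis genes was 0.24 in bleomycin females, 0.33 in sham females, 0.40 in bleomycin males and 0.33 in sham males, against 0.22, 0.17, 0.37 and 0.22 over all tested genes.

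The wider machinery of cell division was covered by further lists of genes outside the 44. Of 104 other mitosis genes found, all tested, 83 were higher and 1 was lower in bleomycin females than in sham females, and 74 were higher and 12 lower in males, with median log2 fold changes of 1.98 and 1.32. Over all tested genes, 13.2% were higher and 8.38% lower in females, and 22.6% were higher and 19.3% lower in males. Of the 104, 21 averaged under 0.5 FPKM in sham females and 16 in sham males, against 0 in either bleomycin group. Any that met the minimum level only with the help of the bleomycin libraries had to come out higher there. How many did so was not counted, and the counts of rises include them. Iqgap3, Spag5 and Ckap2 had the smallest p in females, with rises of 3.06 ± 0.19, 3.09 ± 0.21 and 3.37 ± 0.23. In males these were Mybl2, a transcription factor of cell cycle genes, the centromere gene Cenpt and the NDC80 subunit gene Spc24, with rises of 2.58 ± 0.19, 1.84 ± 0.17 and 2.59 ± 0.25. The 12 genes that fell in males, a share below that of all tested genes, were Stag2, Smc1a, Rad21, Wapl, Pds5b, Lin52, Stag1, Anapc1, Pds5a, Smc3, Ckap5 and Mis12. Stag2, which encodes a subunit of the cohesin ring that holds sister chromatids together, had the lowest value and fell by 0.75 ± 0.12 (adjusted p = 0.00011), with 15.1 ± 3.74 FPKM in bleomycin males, against 24.5 ± 2.18 FPKM in sham males. The other 11 were at −0.55 to −0.28, and Lin52 was also the gene that fell in females, by 0.37. The response difference passed for 26 of the 104, all larger in females, beside 3.65% of all tested genes. In bleomycin females 35 were higher than in bleomycin males, beside 11.7% of all tested genes. Both counts are from the fit of all 20 libraries and were not followed over the other fits.

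DNA replication genes moved with the mitosis genes but by less. Of 40, 38 were higher in bleomycin females, beside 13.2% of all tested genes, with a median log2 fold change of 1.65. In bleomycin males 34 were higher and 1 lower, beside 22.6% and 19.3% of all tested genes, with a median of 0.99. Of the 40, 5 averaged under 0.5 FPKM in sham females (Mcm10, Orc1, Cdc6, Pole and Cdc7) and 2 in sham males (Mcm10 and Orc1). In either bleomycin group 0 did. Any that met the minimum level only with the help of the bleomycin libraries had to come out higher there. How many did so was not counted, and the counts of rises include them. The smallest p belonged to Mcm2, Pole and Mcm6 in females, with rises of 1.78, 2.60 and 2.00, and to Cdc7, Cdc6 and Uhrf1 in males, with rises of 1.88, 2.22 and 1.90. The gene listed as Cdc45 fell by 0.70 in males, and is uncertain because its symbol stands in more than 1 row. The response difference passed for 9 of the 40, all larger in females, beside 3.65% of all tested genes. This count is from the fit of all 20 libraries and was not followed over the other fits.

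Markers of other cells that could hold dividing cells were set beside these results for whole lists, whose counts stand beside the same shares of all tested genes: 13.2% higher and 8.38% lower in females, and 22.6% higher and 19.3% lower in males. Of 8 thymocyte markers, 5 (Rag1, Rag2, Dntt, Ptcra and Themis) averaged under 0.5 FPKM in all 4 groups. Fibroblast markers were higher in 7 of 10 tested genes in females and 6 of 10 in males, with summed levels of 1209 to 1751 FPKM in bleomycin females, 328 to 511 FPKM in sham females, 1598 to 2160 FPKM in bleomycin males and 582 to 934 FPKM in sham males. Of 11 macrophage markers, 10 were tested and 6 rose in females and 8 in males, with sums of 225 to 498 FPKM in bleomycin females, 194 to 214 FPKM in sham females, 417 to 979 FPKM in bleomycin males and 165 to 220 FPKM in sham males. The summed endothelial markers, 8 genes, were 544 to 750 FPKM in bleomycin females and 522 to 578 FPKM in sham females, and 325 to 602 FPKM in bleomycin males and 548 to 802 FPKM in sham males. Of these 8 genes, 4 rose and 1 fell in females, while 1 rose and 4 fell in males. Erythroid markers summed to 106 to 396 FPKM in bleomycin females, 249 to 552 FPKM in sham females, 34.1 to 131 FPKM in bleomycin males and 504 to 1035 FPKM in sham males. Of the 8 tested erythroid genes 1 rose in females and 5 fell in males.

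Of 3 tested thymocyte genes 1 fell in females and 1 rose in males. Of 9 tested germinal centre and plasma cell genes 1 fell in females and 4 fell in males, and of 9 T and NK cell genes 2 fell in females while 1 rose and 2 fell in males. Neither of the 2 tested granulocyte precursor genes passed in either sex in edgeR, and none had an unadjusted p under 0.05. Alveolar type 2 genes fell in 1 of 9 in females and 4 of 9 in males, alveolar type 1 genes in 2 of 7 and 5 of 7, and airway genes in 2 of 4 and 1 of 4. Beside them, 8.38% of all tested genes fell in females and 19.3% in males. Of 4 mesothelial genes 1 rose in males, and of 9 tested genes of neighbouring organs 1 rose in females. Between bleomycin females and bleomycin males, where 21 mitosis genes were higher in females, 5 of 10 macrophage, 4 of 9 T and NK cell, 2 of 9 neighbouring organ and 1 of 3 thymocyte genes were lower in females, beside 8.72% of all tested genes. Higher in females were 5 of 7 alveolar type 1, 5 of 8 endothelial, 4 of 8 erythroid, 2 of 9 alveolar type 2 and 1 of 10 fibroblast genes, beside 11.7% of all tested genes. The marker counts between the sexes are from the fit of all 20 libraries and were not followed over the other fits. The 7 alveolar type 1 genes summed to 1752 to 2507 FPKM in bleomycin females and 543 to 1840 FPKM in bleomycin males. The part of these cells in the levels of the mitosis genes was not tested.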

How the data were processed

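RNA from 1 lung sample per animal with an RNA integrity number of at least 7.0 was made into stranded poly-A libraries, amplified for 15 cycles and read as paired 150-base reads on a NovaSeq 6000, per the labels' protocols. Per the same protocols, reads were trimmed with Cutadapt 1.10, checked with FastQC 0.10.1, aligned with HISAT2 2.0 to the rat genome (Rnor 6.0, Ensembl 112) and quantified by the authors with StringTie 1.3.4 as FPKM per gene, and counts were imported into DESeq2 and edgeR by the authors. How the deposited counts were derived, and whether strand was used, is not given in the sources used here. Among low deposited counts, multiples of 4 are in excess (the value 4 stands 7103 times, 3 stands 3459 times and 5 stands 2447 times), and the totals exceed the number of reads that the labelled base yield implies, so a count is not taken as 1 independent read. All 20 count and 20 FPKM columns were matched to animals by name, 0 were left unmatched, and no libraries were identical.

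Counts were tested with edgeR 4.0.16 in R 4.3.3 (TMM scaling, robust quasi-likelihood fit of 4 group means over all 20 libraries, prior count 0.125), after keeping 15875 genes with an FPKM of at least 0.5 in at least 5 libraries. The 5 contrasts were bleomycin over sham in each sex, their difference (female minus male), and females over males within each treatment, with p-values adjusted over all tested genes. The p-values rest on a spread between animals that was estimated over all 4 groups together, although the groups differed in spread. The median SD of log2(FPKM + 0.1) over all tested genes was 0.37 in bleomycin males and 0.17 in sham females. The scripts were tested on simulated data with known changes. Alternatives were other scalings, filters and pseudocounts (limma 3.58.1), DESeq2 1.42.0, counts divided by 4, a replicate block, a mitochondrial covariate, fits of only the groups compared, and leaving out libraries.

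The mitosis genes, the roles and all other lists were chosen with earlier results of these data known. Each role's most abundant gene, and Plk1, Mki67 and Top2a, were given in every animal; the 3 highest and 3 lowest genes of each contrast, genes that did not follow the majority, and genes with an animal far from its group were named; from the other lists the 3 smallest p of each treatment contrast and every gene that fell. Sequences were not used here, since the reference supplied is of mouse. The paired miRNA libraries are not analysed here.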

Additional observations from a re-analysis of the deposited data

Results flagged for a closer look

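In 11 of 176 gene and group combinations 1 animal lay far from the other 4 of its group by Dixon's test at the 95% level, where chance flags about 1 in 20. These values are FPKM. For Aurkb, the high animals were bleomycin female 2 at 91.4, sham female 1 at 68.6, bleomycin male 2 at 277 and sham male 4 at 75.2. Ccnb2 and Ube2c were low in bleomycin female 4, at 11.2 and 15.6. Foxm1 was high in bleomycin male 1, at 2.78. Smc2 and Prc1 were low in sham female 5, at 2.56 and 7.96. Birc5 was high in sham male 1, at 1.44, and Tpx2 was low in sham male 3, at 1.39.

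For 19 genes the female response to bleomycin exceeded the male response by the test of that difference itself, in log2 units of female minus male. This is the edgeR fit of all 20 libraries, and 0 of the 19 passed in every setting. Among genes of mitotic entry and chromosome structure the differences were 1.21 for Ccnb2, 1.11 for Plk1, 1.35 for Top2a, 1.05 for Mki67, 1.04 for Lmnb1, 1.16 for Ncapg, 0.73 for Ncapd2 and 0.92 for Smc2. Among kinetochore, checkpoint and spindle genes they were 1.47 for Ndc80, 1.12 for Bub1, 1.26 for Tpx2, 1.56 for Nusap1, 1.69 for Kif11 and 1.67 for Kif18b. Among cytokinesis and exit genes they were 0.89 for Prc1, 1.33 for Anln, 1.33 for Ect2, 1.01 for Racgap1 and 1.26 for Cdc20.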

How the results depend on the processing

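The treatment counts were stable: over 34 settings 40 to 43 of 43 genes passed in males and 41 to 42 in females, and 39 of the 42 male and all 41 female calls passed in every setting (the male exceptions were Smc2, Aurkb and Prc1). These counts include Cenpa and Cenpe, whose rises were built into the selection. With the stricter filter of 2 FPKM this held for more genes, since Ttk and Espl1, for example, were below that level in every sham lung. Leaving out 1 library gave 40 to 43 in males and 41 in females. The male counts include Kif4a as a fall in DESeq2 and without sham male 1, bleomycin male 4 or bleomycin male 5. A count of 43 thus stands for 42 rises and 1 fall. Kif4a in females changed sign, to 0.029 with the mitochondrial covariate, 0.023 without sham female 5 and 0.016 without bleomycin female 4 (−0.15 to 0.023 over all single libraries left out), none of them past the threshold. The sex comparisons were not stable, and 0 of 19 response differences and 0 of 21 differences within bleomycin passed in every setting. Without 1 library, 6 to 32 response differences, 9 to 29 differences within bleomycin and 0 to 1 within sham passed. With the mitochondrial share as a covariate the counts were 0, 0 and 2, and without the 5 libraries with neighbouring organ transcripts 2, 0 and 6, in that order of comparisons. Fitting only the groups compared gave 0 within bleomycin and 1 within sham, and gives no other value for the response difference, which needs all groups. Within sham, library totals in place of TMM gave 1, limma on log2(FPKM + 0.1) gave 1 and DESeq2 gave 3. The cause of these changes was not tested, beyond the fewer libraries that some fits hold. Counts from DESeq2 were 28 for the response difference and 24 within bleomycin. Same-numbered animals of different groups had correlations of −0.14 to 0.43 between their deviations, over 0.1 in 2 of 5 male pairs, 0 of 5 female pairs, 3 of 5 pairs within bleomycin and 3 of 5 within sham, and 5, 1, 4 and 8 of 10 libraries were closest to their own number. Since not every pair was over 0.1 in any comparison and no label says what a number marks, the numbers were not taken as pairs, although within sham most libraries were closest to their own number. With a replicate block 42 male, 41 female, 20 response, 21 bleomycin and 0 sham calls were made (18 unadjusted p under 0.05 in sham).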

Other observations

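Genes that hold the cell cycle back did not move as 1 group. Of 14 such genes, 4 rose and 4 fell in bleomycin females against sham females, and 6 rose and 5 fell in bleomycin males against sham males (edgeR, adjusted p under 0.05; 13.2% of all tested genes rose and 8.38% fell in females, and 22.6% rose and 19.3% fell in males). Cdkn2c, which encodes an inhibitor of the cyclin D kinases, rose by 1.70 ± 0.20 in females and 0.87 ± 0.20 in males on the log2 scale. Cdkn2a was higher by 1.38 ± 0.44 in females and 2.72 ± 0.46 in males, and the counts of genes that rose include it. It averaged only 0.386 ± 0.193 FPKM in sham females and 0.220 ± 0.113 FPKM in sham males. Cdkn2a thus met the minimum level only with the help of the bleomycin libraries. Its rise was built into the selection, and its p-values are no evidence of a rise. Of the list, 3 genes fell in both sexes: Cdkn1c by 1.01 ± 0.25 in females and 1.05 ± 0.25 in males, Cdkn1b by 0.75 ± 0.16 in females and 0.55 ± 0.16 in males, and Rbl2 by 0.50 ± 0.093 in females and 0.39 ± 0.093 in males.

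Cdkn1a, the p53 target that encodes a CDK inhibitor, rose by 1.25 ± 0.27 in males (adjusted p = 0.0013) and was at 0.43 ± 0.27 in females (adjusted p = 0.27), and the difference between the responses did not pass (−0.82 ± 0.38, adjusted p = 0.17). Within bleomycin lungs Cdkn1a was lower in females than in males by −1.03 ± 0.27 (adjusted p = 0.014), as was Ccng1, another p53 target, at −0.49 ± 0.15 (adjusted p = 0.027). Cdkn2b was higher in bleomycin females than in bleomycin males by 1.34 ± 0.30 (adjusted p = 0.0076), Rbl1 by 0.74 ± 0.21 (adjusted p = 0.021), Cdkn2c by 0.69 ± 0.20 (adjusted p = 0.02) and Rb1 by 0.46 ± 0.12 (adjusted p = 0.015). Of the 14 genes 4 were thus higher and 2 lower, beside 11.7% and 8.72% of all tested genes. These sex differences are from the edgeR fit of all 20 libraries and were not followed over the other fits. Over all tested genes, 3239 passed in that fit, 29 with only the bleomycin libraries fitted and 46 with the mitochondrial share as a covariate. DESeq2 on all 20 libraries called 4204.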
